A study of Mus musculus with 7 samples.

Results

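The antigen receptor loci of the mouse hold the gene segments from which B and T lymphocytes assemble immunoglobulins and T-cell receptors. All 494 immunoglobulin and T-cell receptor segments of GENCODE M21 that are not pseudogenes were taken here, out of 55413 genes on the same chromosomes, and each was given a window of its gene interval plus 1 kb on either side. They comprised 366 V, 23 D, 84 J and 21 C segments, of which 268 were immunoglobulin and 226 T-cell receptor segments. By locus there were 146 in Igh (heavy chain), 108 in Igk (kappa light chain), 12 in Igl (lambda light chain), 162 in Tra, 10 in Trd, which lies inside Tra, 39 in Trb and 15 in Trg, and 2 lay outside these loci. Neighboring windows overlapped, so that the 494 windows covered 405 separate stretches.

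The measurement was bulk ATAC-seq, in which the Tn5 transposase cuts accessible DNA and the fragments pile up at open chromatin regions (OCRs), in HPC7, a mouse hematopoietic progenitor line grown with stem cell factor. The 7 libraries, HPC7-1, HPC7-2 and HPC7-4 to HPC7-8, came from independent culture batches and made up 1 group with no treatment in the labels, so that comparisons were made between sets of intervals within each library. The lists held 84593 to 132852 OCRs, with a background of 4.44 to 20.4 reads per library and at least 12 to 35 reads at a summit. Names of the OCRs begin with VD in 3 libraries and EtOH in 4, which the labels do not explain. Whether these libraries were treated alike is not stated, and the segment shares of the libraries with each prefix overlapped, at 23.9% to 28.9% and 22.7% to 29.6%. Promoters of all 10 hematopoietic progenitor markers listed as a check had an OCR in 7 of 7 libraries, against 1 of 7 B-cell markers (Blnk) and 4 of 10 T-cell markers (Cd3d, Cd247, Lck and Zap70), beside 55.9% of all 21938 protein-coding genes. Pax5, Ebf1, Cd79a and Ms4a1 of the B cell and Cd3e, Cd3g, Bcl11b, Cd4 and Cd8a of the T cell had none in any library.

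V(D)J recombination joins a V segment to a J segment, through a D segment in Igh, Trb and Trd, upstream of a C segment that encodes the constant region. The RAG1 and RAG2 proteins cut at recombination signal sequences, each a heptamer and a nonamer separated by a short or a long spacer, and in a V segment the signal lies just past the 3′ end. Enhancers near the C segments and opening of the V segments precede recombination, which takes place in lymphoid cells, with Igh opened before the light chains. In B cells, tandem repeats upstream of each heavy chain C segment but Ighd, the switch regions, serve class switching.

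The signals of the Igh V segments with the highest fold enrichment are shown because the OCR summits lay near them. Ighv8-12, also among the highest, is left out because no signal met the search rule there. Each is written 5′ to 3′ in the direction of the gene, read from GRCm38 at the mm10 coordinates, with the last 10 bases before the heptamer, and capitals mark the heptamer (consensus CACAGTG) and the nonamer (consensus ACAAAAACC).
Ighv1-54: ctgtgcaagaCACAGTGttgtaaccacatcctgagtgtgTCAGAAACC
Ighv1-59: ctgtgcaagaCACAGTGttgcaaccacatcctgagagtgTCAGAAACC
Ighv1-77: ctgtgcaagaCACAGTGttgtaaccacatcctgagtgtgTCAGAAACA
Ighv1-71: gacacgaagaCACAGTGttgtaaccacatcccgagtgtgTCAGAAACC
Ighv1-75: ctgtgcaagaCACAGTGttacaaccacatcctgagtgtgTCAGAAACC
Ighv1-5: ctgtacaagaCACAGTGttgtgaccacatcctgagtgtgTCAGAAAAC
Ighv1-58: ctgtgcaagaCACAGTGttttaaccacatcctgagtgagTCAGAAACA
For contrast, the V segments nearest the D segments of Igh, which had lower OCRs, and the Igk V segments nearest the J segments, which had none, read as follows.
Ighv5-2: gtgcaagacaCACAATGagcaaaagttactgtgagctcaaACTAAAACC
Ighv2-2: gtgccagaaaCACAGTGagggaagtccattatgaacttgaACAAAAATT
Ighv5-4: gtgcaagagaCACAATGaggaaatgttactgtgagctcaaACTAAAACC
Igkv3-1: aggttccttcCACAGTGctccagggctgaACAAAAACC
Igkv3-2: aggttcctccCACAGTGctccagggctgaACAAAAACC
The first 7 carried the consensus heptamer, a spacer of 22 bases and a nonamer with 6 or 7 of 9 consensus bases. They lie on the minus strand of chromosome 12, from Ighv1-5 at chr12:114513292-114513339 to Ighv1-77 at chr12:115861829-115861876. Both Igk signals, at chr6:70704168-70704205 and chr6:70699058-70699095 on the plus strand, matched heptamer and nonamer at every base, with a spacer of 12 bases. The octamer of immunoglobulin promoters, ATGCAAAT or ATTTGCAT on the reverse strand, is in capitals in the 100 bases before and the first 20 of the segment at chr12:115194115-115194234 and chr6:70703478-70703597.
Ighv1-54 start: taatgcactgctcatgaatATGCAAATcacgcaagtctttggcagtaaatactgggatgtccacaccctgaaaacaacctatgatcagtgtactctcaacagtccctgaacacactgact
Igkv3-1 start: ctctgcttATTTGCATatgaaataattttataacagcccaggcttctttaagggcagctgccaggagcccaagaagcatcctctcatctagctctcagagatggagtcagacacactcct

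An OCR overlapped the window of 166 segments (33.6%) in at least 1 library and of 94 (19%) in all 7, while 328 had none in any list. The background, over the 54711 other genes with the same flanks, was 47.5% in at least 1 library and 38.7% in all 7. Per library, 112 to 146 segments had an OCR, a mean of 26.2% ± 2.99 (SD, n = 7 libraries, as for every mean that follows). That share was below that of the other genes, 43.0% ± 1.95, in each of the 7 libraries, by 16.8 percentage points ± 1.25 (two-sided exact permutation over libraries by sign flips, p = 0.0156, the smallest that 7 libraries allow, Benjamini-Hochberg adjusted p = 0.0156). Such p-values measure the spread between culture batches of 1 line. In bulk chromatin, a segment open in few cells and one weakly open in all cells cannot be told apart. With windows of 5 kb on either side, the count of segments with an OCR in all 7 libraries was 149 instead of 94.
The other genes are longer, with a median of 3429 bp against 479 bp. Against the 17720 other genes of at most 1 kb, of which 14.7% ± 1.69 had an OCR, the segments were higher by 11.4 points ± 1.78 in 7 of 7 libraries. This excess of the pooled segments did not hold for every locus. The share was 49.7% ± 4.76 in Igh, 36.3% ± 7.32 in Trb, 22.7% ± 4.18 in Tra and 15.7% ± 7.87 in Trd. In Trg it was 6.67% ± 0.0, in Igk 3.04% ± 1.28 and in Igl 0.0% ± 0.0, below the short genes. The pooled segments also exceeded the 1093 olfactory receptor genes, another large clustered family with a median length of 5987 bp, of which 6.61% ± 1.43 had an OCR, by 19.6 points ± 1.63. Against 2.5 kb tiles of the genome, at 10.4% ± 1.51, the difference was 15.8 points ± 1.81. Each of these comparisons had an adjusted p of 0.0156 by the same exact permutation test. With windows of 5 kb on either side, the difference from olfactory receptor genes was 30.16 points.

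**Figure D1:**
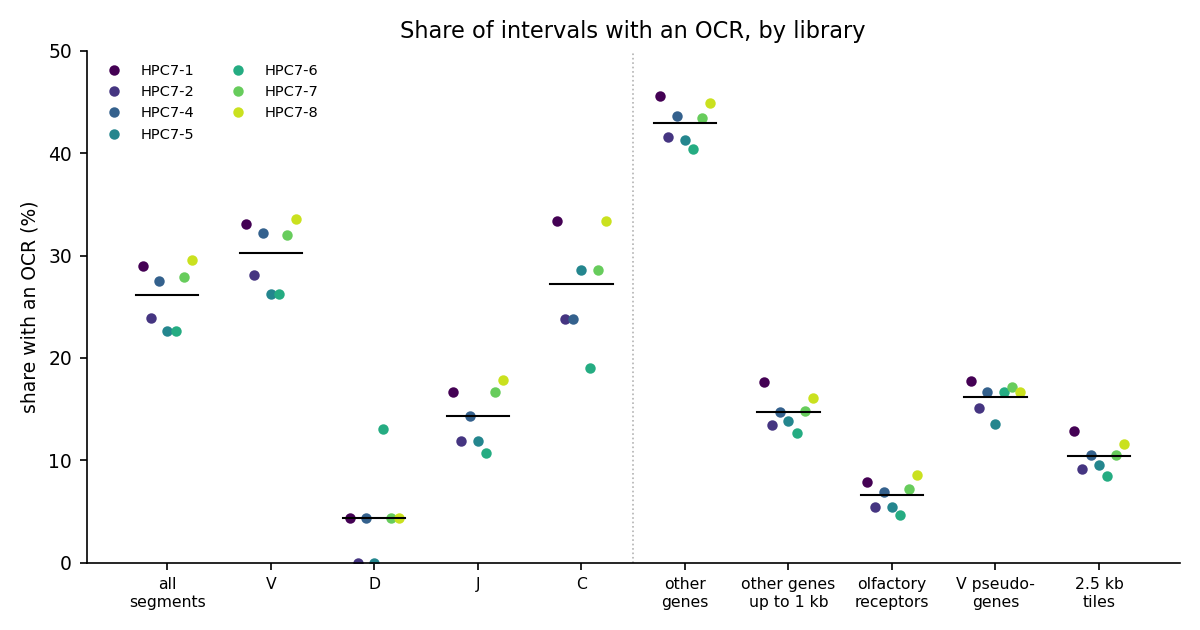
Share of windows or intervals with at least 1 OCR, in percent, for all segments, the V, D, J and C segments and 5 comparison sets; each point is 1 library and the line is the mean of 7. The segments, at 22.7% to 29.6%, lie below the other genes in every library and above the other genes of at most 1 kb, the olfactory receptor genes, the V pseudogenes and the tiles.

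By class, 30.2% ± 3.24 of V segments, 27.2% ± 5.30 of C segments, 14.3% ± 2.83 of J segments and 4.35% ± 4.35 of D segments had an OCR. The difference from V segments was -15.9 points ± 1.12 for J and -25.9 points ± 5.67 for D segments, each negative in every library (exact permutation test, adjusted p = 0.0234 over 3 contrasts). Of the 84 J segments 51 lie in Tra, where J segments were at 20.7% ± 2.74 and V segments at 22.9% ± 5.10. Of the 366 V segments 115 lie in Igh, with V at 59.2% ± 4.80 and J at 35.7% ± 34.9. In Trb, V segments were at 60.4% ± 9.36 and J segments at 0.0% ± 0.0. The pooled difference of J from V therefore also reflects which loci hold each class. The difference of C from V segments was -3.00 points ± 3.99 and negative in 5 libraries (exact permutation p = 0.109). This call depended on the window and on the length of the peak lists. The difference was -13.15 points without flanks, -8.325 by summit and -5.749 with equal numbers of peaks (exact permutation p = 0.0156 in each). With 5 kb on either side it was 2.465 (p = 0.156 by the same permutation test). Many J segments lie so close together that 1 OCR covered several. With windows of 5 kb on either side, J segments exceeded V segments by 18.45 points instead.
The loci differed more than the classes did. An OCR was present in all 7 libraries at 56 of 146 Igh segments, 26 of 162 in Tra, 10 of 39 in Trb, 1 of 108 in Igk, 1 of 15 in Trg, 0 of 10 in Trd and 0 of 12 in Igl. In at least 1 library it was present at 90 segments of Igh, 49 of Tra, 19 of Trb, 5 of Igk, 2 of Trd, 1 of Trg and 0 of Igl. The immunoglobulin share of 28.3% ± 3.08 exceeded the T-cell receptor share of 23.6% ± 4.35 by 4.66 points ± 4.41, in 6 of 7 libraries (exact permutation p = 0.0469). That difference missed the threshold when any library but HPC7-1 was left out, with exact permutation p between 0.0625 and 0.0938, and with windows of 5 kb it turned to -10.65 points.

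The V segments of Igh were open mainly in the part of the locus far from the D segments. Igh was divided by order into the 39 V segments nearest the D segments, 38 in the middle and the 38 farthest away. In the farthest group, 36 of 38 had an OCR in all 7 libraries and all 38 in at least 1. In the middle group 12 of 38, and in the nearest group 6 of 39, had one in all 7. Between 36 and 38 segments of the farthest group had an OCR in each library, against 14 to 20 of the middle and 6 to 19 of the nearest. The ranges of the farthest group and the others did not overlap. The lowest count in the nearest group, 6, was that of HPC7-5.
The height of the OCRs followed the same order. Fold enrichment is the number of reads at the summit over the background of the library, with 1 read added to each. Among segments with an OCR in all 7 libraries, the median of the mean fold enrichment was 36.9 in the farthest group, with a range of 5.65 to 152, against 17.4 in the middle and 7.78 in the nearest group. All 17 Igh V segments with a mean of at least 50 lay beyond 1000 kb from Ighm. Most Igh V segments with an OCR in all 7 libraries lay far from Ighm too, with only 6 of the 54 in the nearest group, which ends at 840.4 kb. The limits of 50 and 1000 kb were not part of the plan.
By family, Ighv1 had an OCR in all 7 libraries at 37 of its 54 segments and Ighv8 at all 9 of its 9. Of the D-proximal families, Ighv2 had 2 of 9 and Ighv5 3 of 11. None of the 6 Ighv3 segments had an OCR in any library. The 12 Ighv1 segments without any OCR, from Ighv1-16 to Ighv1-43, lay in 1 stretch between 1243 and 1523 kb from Ighm. That stretch, picked out after the values were seen, held 15 V segments, of which Ighv1-23, Ighv1-39 and Ighv1-42 had an OCR.

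**Figure D2:**
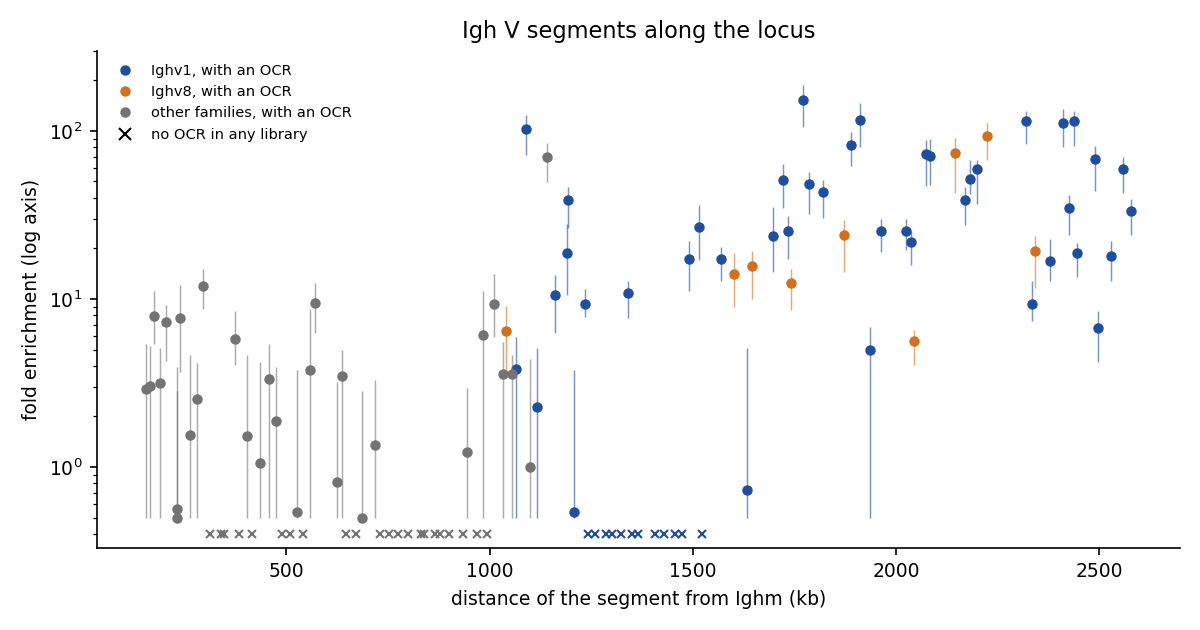
Igh V segments by distance from Ighm, in kb, against fold enrichment on a log axis; points are means over 7 libraries (0 where a library had no OCR), lines run from the lowest to the highest library, values under 0.5 are drawn at 0.5, and crosses mark segments with no OCR in any library. All means of at least 50 lie beyond 1000 kb, as do most segments with an OCR in all 7 libraries. The 12 Ighv1 segments without an OCR sit between 1243 and 1523 kb.

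Ighv1-54 (chr12:115193675-115194134, minus strand) had the highest OCR of the V segments of Igh. Its fold enrichment in HPC7-1, -2, -4, -5, -6, -7 and -8 was 136, 139, 160, 184, 105, 151 and 188, a mean of 152 ± 28.7. Ighv1-59 (chr12:115335082-115335514) had 96.9, 106, 125, 147, 80.3, 116 and 142 in the same order of libraries. In both, HPC7-6 was lowest, as it also was at Ighv1-77 (81.0 to 132, mean 114 ± 18.4), Ighv1-71 (83.5 to 132, mean 114 ± 16.2) and Ighv1-75 (80.3 to 135, mean 112 ± 18.9). Ighv1-5 (chr12:114513330-114513807), the one of these nearest the D segments, had 72.3 to 124, a mean of 103 ± 19.2, Ighv8-12 67.1 to 111, a mean of 93.7 ± 13.5, and Ighv1-58 61.5 to 98.3, a mean of 81.9 ± 14.3. These OCRs lay at a mean percentile of 93.8 to 98.3 of fold enrichment in their libraries. By contrast Ighv5-4, close to the D segments, had 5.38, 6.98, 9.58, 5.92, 7.35, 8.59 and 11.2, and Ighv5-2 had no OCR in HPC7-1 and HPC7-5 and 3.31 to 5.39 in the other 5. The lowest value of each of the 8 high segments named was above the highest value of both.
Igh V segments resemble each other, and how the aligner and caller treated reads with several matches is not given in the sources used here. Of the 50-base words within 100 bp of the summit, 38.2% at Ighv1-54, 54.6% at Ighv1-59 and 0% at Ighv1-5 occur a second time in the Igh locus. Among the 54 Igh V segments with an OCR in all 7 libraries the median was 33.2%, and 9 had no copied word, Ighv1-5 and Ighv15-2 (fold enrichment 49.7 to 85.1) among them. The median of the mean fold enrichment was 17.3 in those 9 and 25.3 in the rest. The part of shared reads in these heights was not tested.

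The summits of the Igh V segments lay at the recombination signal end. Of the 54 with an OCR in all 7 libraries, 45 had their median summit within 150 bp of the 3′ end of the segment, and 1 within 150 bp of its start. The median position was 2 bp past the 3′ end, and between -2 and 5 bp in single libraries. At Ighv1-77 the summit lay 10 bp past the 3′ end with an SD of 3.05 bp over the libraries, and at Ighv1-59 62 bp past it in each library. Ighv1-67 was the farthest, with its summit at -1179 bp.
At Tra V segments most summits lay away from the 3′ end. Over the 16 with an OCR in all 7 libraries the median summit was at -663 bp from the 3′ end, between -663 and -643 bp in single libraries, and at -99 bp from the start of the segment. Of the 16, 8 had their summit within 150 bp of the start, and the range was -531 to 1659 bp from it. Only 1 of the 16, Trav6-3, had its summit within 150 bp of the 3′ end. The 10 Trb V segments fell on either side, with 4 within 150 bp of the 3′ end and 4 within 150 bp of the start.

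**Figure D3:**
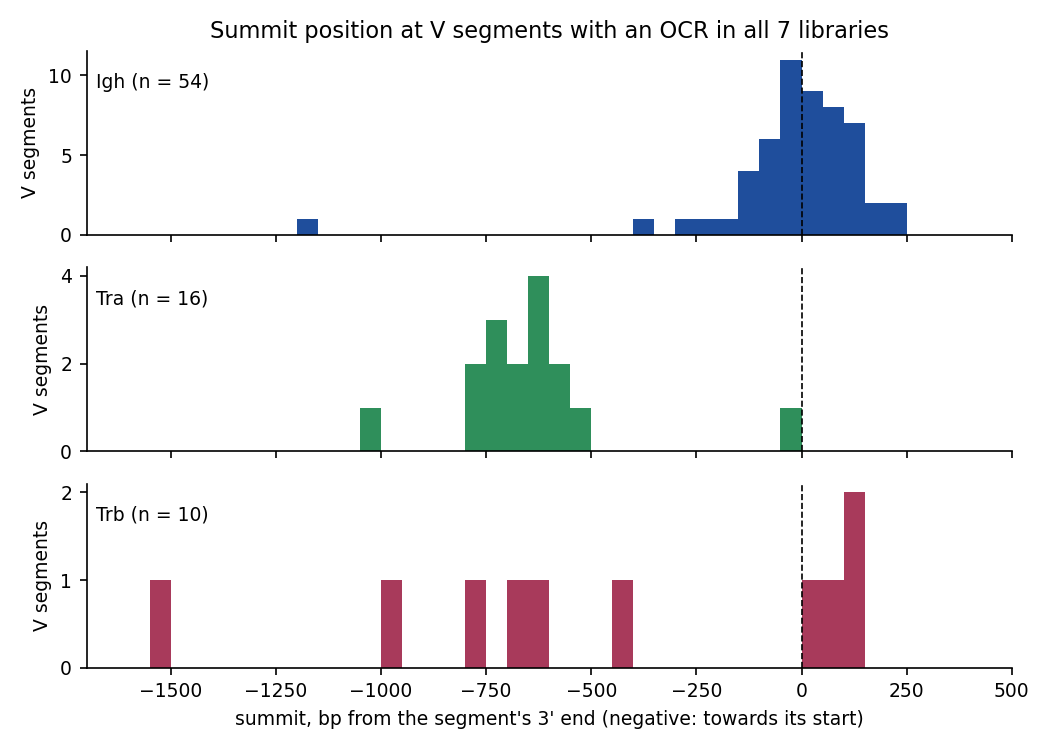
Number of V segments with an OCR in all 7 libraries by the median position of the summit relative to the 3′ end of the segment, in bins of 50 bp, for Igh, Tra and Trb; the dashed line is the 3′ end. Most Igh summits sit within 150 bp of the line, most Tra summits left of it around their median of -663 bp, and Trb summits at both places.

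The consensus heptamer and the octamer were also common in V segments without an OCR. The consensus heptamer was present in 42 of 46 Igh V segments with an OCR in all 7 libraries and a signal found (91.3%), in 17 of 26 with an OCR in some (65.4%) and in 21 of 31 with none (67.7%). In Igk, where 98 of 102 V segments had no OCR in any library, 87 of 97 of those carried it (89.7%). In Tra the shares were 87.5% with an OCR in all 7 libraries, 90.0% in some and 83.8% with none. In Trb they ran the other way, with 3 of 10 in all, 1 of 7 in some and 4 of 5 with none. Of the RefSeq promoter windows of GRCm38.p6, from 250 bp before to 50 bp after a gene start, 6.81% hold this heptamer on either strand. The octamer was found between 250 bp before and 50 bp after the start of 79.1% of Igh V and 72.5% of Igk V segments, of 0 of 110 Tra V and 0 of 22 Trb V segments, and of 1.74% of 32851 RefSeq promoters of that length. Among Igh V segments it was present in 87.0% of those with an OCR in all 7 libraries and in 76.5% of those with none. These are counts over related sequences, given without a test.

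V segments were also compared with the 192 V pseudogenes, which lie among them. Pseudogenes had an OCR in 16.2% ± 1.42, below the V segments by 14.0 points ± 2.45 in 7 of 7 libraries (exact permutation test, adjusted p = 0.0156). With windows of 5 kb the difference was 4.81 points, in 6 of 7 libraries (exact permutation test, adjusted p = 0.0312). The values within loci were added after seeing the data. Within Igh, V segments were at 59.2% ± 4.80 and pseudogenes at 33.9% ± 3.10, a difference of 25.4 points ± 3.36 in 7 of 7 libraries (exact permutation test, adjusted p = 0.0208 over 4 loci). The difference was 15 points ± 2.5 in Tra with Trd and 43.9 points ± 8.72 in Trb (7 of 7 libraries and adjusted p = 0.0208 in each, exact permutation test). In Igk it was 2.24 points ± 1.35, positive in 6 of 7 (exact permutation test, adjusted p = 0.0312). No Igk pseudogene had an OCR in any library (0.0% ± 0.0). The Igk difference could therefore not be negative, and its test shows no more than that some V segments had an OCR. Of 81 Igh pseudogenes 21, of 13 in Trb 2 and of 74 in Igk 0 had an OCR in all libraries.

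In Trb, Trbv1 (chr6:40891229-40891885, plus strand), the V segment at the far end of the locus, had a fold enrichment of 165, 147, 183, 171, 115, 143 and 168 in the order of the libraries. Its mean of 156 ± 22.9 was above the 152 ± 28.7 of Ighv1-54 by less than their spread, with Ighv1-54 higher in HPC7-5, HPC7-7 and HPC7-8. The summit of Trbv1 lay at -30 bp from its start. The next of the locus were Trbv17, with 19.4 to 38.7 and a mean of 26.4 ± 6.32, and Trbv31, which is inverted and lies beyond the C segments, with 12.5 to 24.5 and a mean of 19.1 ± 4.38. The lowest library of Trbv1 was above the highest of both. In all, 17 of 22 Trb V segments had an OCR in at least 1 library and 10 in all 7.
In Tra, 36 of 110 V segments had an OCR in at least 1 library and 16 in all 7. The highest was at Trav4-4-dv10, a segment used by both alpha and delta chains, with 35.5, 23.9, 32.2, 25.4, 17.7, 32.9 and 26.9 in the order of the libraries and a mean of 27.8 ± 6.17. The lowest number of Tra V segments with an OCR was 17, in HPC7-6, the library with the fewest OCRs, and the highest was 34, in HPC7-1, the library with the most.
Of 102 Igk V segments, Igkv8-21 had an OCR in 6 libraries, Igkv10-96 in 5, Igkv10-95 in 4 and Igkv10-94 in 1. Their highest value in any library was 6.26, at Igkv8-21. In Trg, Tcrg-V7 alone had an OCR, in all 7 libraries, with a fold enrichment of 7.98 to 15.7 and a mean of 11.5 ± 2.54. No Igl segment had one at all. In Trd, Trdv1 had an OCR in 5 libraries, with 5.68 as the highest value.

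All J segments with an OCR in every library belonged to Tra, 9 of its 51. Traj22, Traj23, Traj24 and Traj25 shared an OCR with a fold enrichment of 21.6, 23.1, 28.2, 29.9, 18.6, 26.9 and 33.8 in the order of the libraries, whose summit lay at -53 bp from the start of Traj23. Traj13 and Traj15 shared a second one, with 16.1 to 27.4 and a mean of 21.4 ± 3.35, Traj41 and Traj42 another, with 8.08 to 14.0 and a mean of 10.0 ± 2.01, and Traj43 had 3.29 to 6.26. None of the 5 Igk, 5 Igl, 13 Trb, 2 Trd and 4 Trg J segments had an OCR in any library. In Igh, Ighj1 and Ighj2 shared an OCR with Ighd4-1, the D segment nearest to them, in HPC7-1, HPC7-4, HPC7-7 and HPC7-8, with a fold enrichment of 2.84 to 3.93. Ighj3 had none. Ighj4 had one in HPC7-4 and HPC7-8, the OCR at the octamer described with the switch repeat. The only other D segments with an OCR were Ighd5-8, Ighd5-4 and Ighd2-6, which shared 1 in HPC7-6 (3.13). The 4 Trb and Trd D segments had none.

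Of the 21 C segments 4 had an OCR in all 7 libraries, Ighm, Ighd, Igkc and Trac. At Ighm and Igkc the OCR lay in the 1 kb flank, and without flanks neither had one in any library, while the summit was inside the Ighm window in 1 library. Ighm, the first heavy chain used in B-cell development, had 198, 275, 248, 130, 192 and 194 in all libraries but HPC7-2, where its window caught an OCR of 3.67 and the main OCR ended outside it. Trac had 8.29 to 13.9 (mean 11.6 ± 2.02), Igkc 7.17 to 11.8 (mean 9.14 ± 1.69) and Ighd 6.26 to 12.1 (mean 9.13 ± 1.94). The ranges of these last 3 overlapped. Trdc had an OCR in 6 libraries, with 3.35 to 4.87, but not in HPC7-6, and Trbc1 and Trbc2 each in 3 libraries, with at most 4.37. The other heavy chain segments (Ighg3, Ighg1, Ighg2b, Ighg2c, Ighe and Igha), Tcrg-C1 to Tcrg-C4 and Iglc1 to Iglc4 had none in any library.

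The OCR at Ighm covered a tandem repeat. The interval from Ighj4 to Ighm, 5.78 kb long, holds the intronic enhancer of Igh and the switch region of Ighm. Its main OCR, at chr12:113423253-113425879 over all libraries, had a fold enrichment of 198, 184, 275, 248, 130, 192 and 194 in the order of the libraries, a mean of 203 ± 46.7, and the summits of the 7 libraries lay within 8 bp of each other. At chr12:113424697-113424847, the 151 bases at that summit, written on the minus strand, the strand of the gene, with the pentamers GAGCT and GGGCT in capitals, are as follows.
Ighj4 to Ighm: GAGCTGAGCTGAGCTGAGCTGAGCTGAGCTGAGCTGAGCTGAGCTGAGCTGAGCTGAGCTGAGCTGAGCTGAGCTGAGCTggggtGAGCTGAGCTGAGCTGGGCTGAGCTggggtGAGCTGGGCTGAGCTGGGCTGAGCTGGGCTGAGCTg
They hold 28 such pentamers, and the whole OCR of 2627 bp holds 220. Of all summits in a library, 0.00709% to 0.0116%, or 6 to 12 OCRs, have 15 or more of them in 151 bases on 1 strand, and the median is 1. Of the 50-base words within 100 bp of the summit 53.3% occur again in the Igh locus. What repeated reads contribute to this height was not tested.
The interval has 1 octamer, ATGCAAAT, at chr12:113427424-113427431. There the OCR was weak, at chr12:113427404-113427657, with a fold enrichment of 3.90 in HPC7-4 and 4.37 in HPC7-8 and none in the other 5 libraries. The high OCR thus lay in the repeat, 0.522 kb from Ighm at its near edge, and the octamer 4.69 kb from Ighm.

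The other intervals, set by flanking genes to cover a known enhancer or control region, fell into those with a high OCR in every library and those with little or none. Values are those of the highest OCR anywhere in an interval, and whether that OCR lies at the enhancer itself was not tested. The interval from Igkc to 15 kb 3′ was taken for the kappa 3′ enhancer. Its highest OCR (chr6:70730445-70731640, 4.07 kb from Igkc) had a fold enrichment of 93.2, 80.7, 87.0, 102, 61.3, 71.2 and 88.3 in the order of the libraries, a mean of 83.4 ± 13.7. From Trac to Dad1, which holds the alpha enhancer, it was 85.9, 66.7, 63.2, 77.1, 57.1, 53.0 and 67.0, a mean of 67.1 ± 11.3, at chr14:54226740-54228803, 3.40 kb from Trac. Between Trbc2 and Trbv31, the place of the beta enhancer, it was 16.7 to 29.6 with a mean of 23 ± 4.42. In the 50 kb 3′ of Igha, which holds the 3′ regulatory region, 7 OCRs lay, 6 of them in all libraries, and the highest in each library, at places up to 4331 bp apart, had 18.0 to 30.5 with a mean of 24.1 ± 3.93. In each of the 4 intervals the lowest library had at least 16.7.
No OCR was listed in any library between Igkj5 and Igkc, the place of the kappa intronic enhancer, nor from Trdd2 to Trdj1, in the 10 kb 3′ of Tcrg-C1, Tcrg-C2 and Tcrg-C3 (3′ of Tcrg-C4, 2 libraries had 2.71 and 2.77), or in the 30 kb 3′ of each Iglc segment. Between Trdj2 and Trdc, which holds the delta enhancer, an OCR had 2.53 to 3.49 in 5 libraries. Between Gm16968, the D segment farthest from Ighm in the annotation, and Ighv5-2, the interval of the intergenic control region, the single OCR lay at Ighv5-2 itself, and had 3.31 to 5.39 in 5 libraries.
The summits 3′ of Igkc (chr6:70730960-70731110) and 3′ of Trac (chr14:54227530-54227680) are shown on the plus strand, with E-boxes (CANNTG, the letters that E2A-type factors bind) in capitals.
Igkc 3′: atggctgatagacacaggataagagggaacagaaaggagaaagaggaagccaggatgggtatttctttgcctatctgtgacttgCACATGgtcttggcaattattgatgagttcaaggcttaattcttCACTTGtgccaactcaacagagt
Trac 3′: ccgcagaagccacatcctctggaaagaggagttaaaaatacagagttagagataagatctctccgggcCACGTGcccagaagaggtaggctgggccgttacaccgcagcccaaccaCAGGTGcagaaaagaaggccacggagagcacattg
Each holds 2 E-boxes and no octamer. At all summits, 57.6% ± 0.730 of such 151-base windows hold an E-box and 0.877% ± 0.0418 an octamer.

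**Figure D4:**
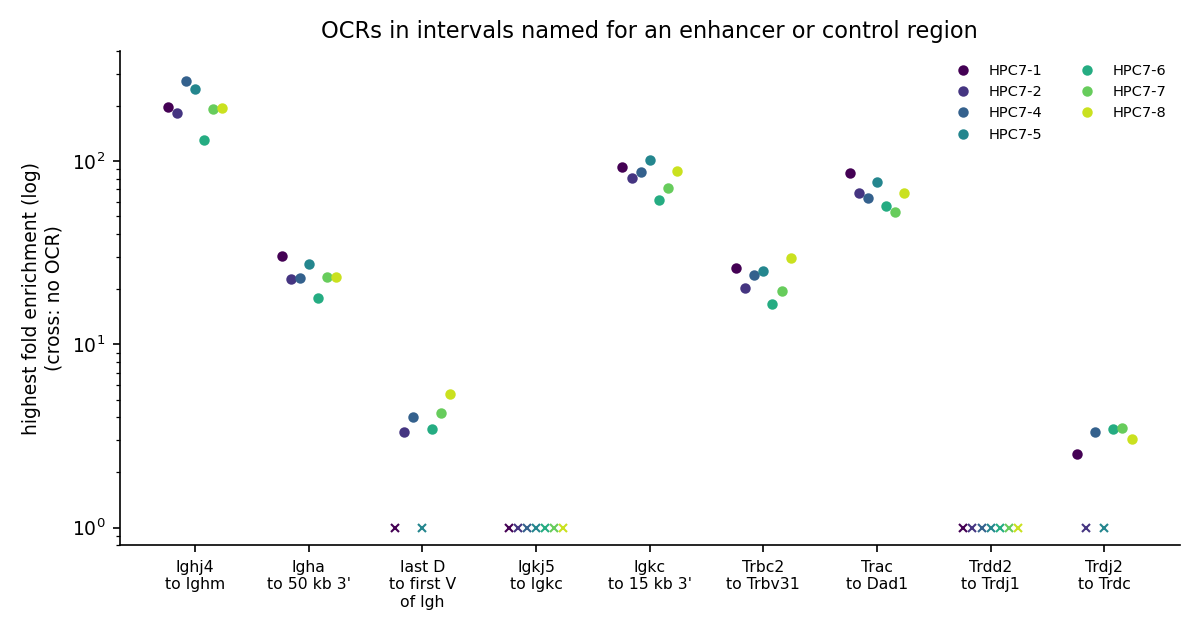
Highest fold enrichment of an OCR in 9 intervals set by flanking genes for an enhancer or control region, on a log axis, for each of 7 libraries; crosses mark libraries without an OCR. The interval from Ighj4 to Ighm, whose summit is in the switch repeat, lies at 130 to 275, those 3′ of Igkc and Trac at 53.0 to 102, and the intervals from Igkj5 to Igkc and from Trdd2 to Trdj1 have no OCR.

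Between the segments, outside all windows, the density of OCRs went in both directions. V pseudogenes were not taken out of this space, and 33.9% ± 3.10 of those of Igh and 16.5% ± 2.91 of those of Trb had an OCR. Their part in the densities was not tested. In Igh there were 56.9 OCRs per Mb ± 7.89 against 35.4 ± 6.02 on the rest of chromosome 12, a mean log2 ratio of 0.69 ± 0.19 that was positive in 7 of 7 libraries. In Trb there were 52.2 ± 12.1 against 37.0 ± 6.25, a log2 ratio of 0.50 ± 0.15, positive in 7 of 7. Igk had 5.70 ± 2.01 against 37.0, a log2 ratio of -2.72 ± 0.46, Igl 7.18 ± 5.31 against 36.6, a ratio of -2.14 ± 0.89, and Trg 8.98 ± 2.97 against 37.2, a ratio of -1.53 ± 0.27, each negative in 7 of 7. For these 5 loci the exact permutation test gave an adjusted p of 0.0187 over 6 loci. The Trg value rests on 1 OCR in 6 libraries and 2 in HPC7-8, and the Igl value on 0 to 2 OCRs per library, so that the pseudocount of 0.5 OCRs sets part of both ratios. Igk and Trb lie on the same chromosome. In Tra with Trd the values were 28.6 ± 5.17 and 31.3 ± 4.92, a log2 ratio of -0.11 ± 0.10, negative in 6 of 7 (exact permutation test, adjusted p = 0.0312). The call was lost at a stricter q (exact permutation p = 0.578), with equal numbers of peaks (0.484 by the same permutation test) and when any library but HPC7-2 was left out (0.0625). That sign turned, to 0.19, against the part of chromosome 14 over 3 kb from any transcript start.

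**Figure D5:**
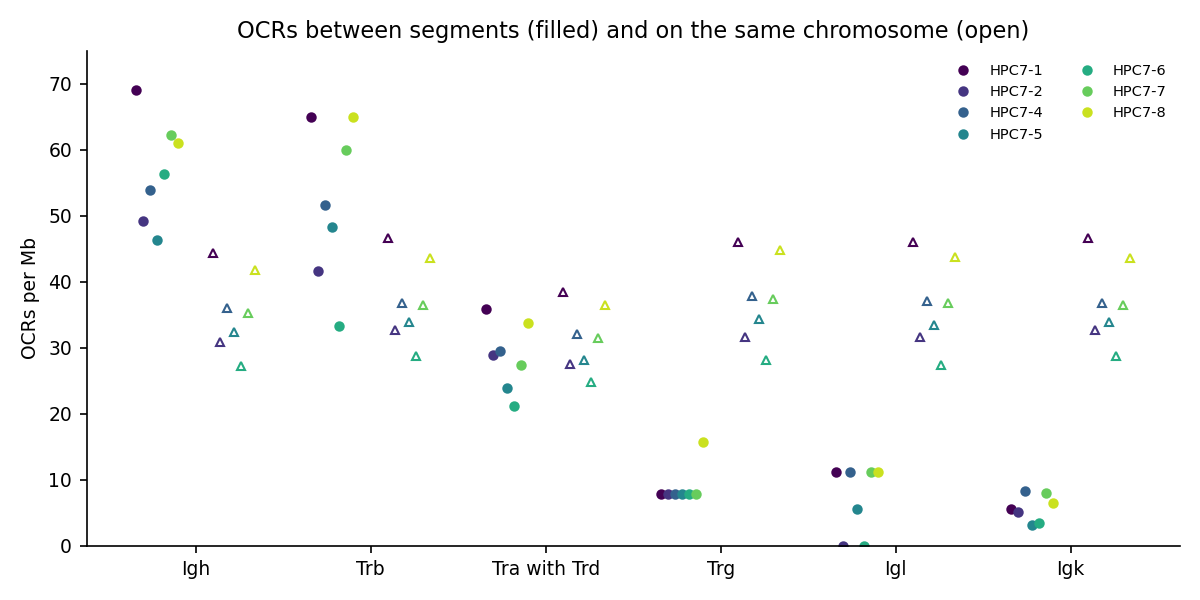
OCRs per Mb between the segments of each locus (filled points) and on the same chromosome outside the loci (open triangles) in each of 7 libraries. Igh and Trb lie above their chromosomes in every library, and Trg, Igl and Igk below.

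Within the loci and 50 kb on either side, 378 OCRs lay outside the windows, 216 of them at Igh, 66 at Tra, 45 at Trb, 37 at Igk, 11 at Trg and 3 at Igl. The highest of Igh was at chr12:115613843-115617987, between Ighv1-67 and Ighv1-69 and over the annotated genes Gm5660 and Gm9245, with 78.8 to 140 and a mean of 116 ± 19.4. The other 2 named of Igh were over the V pseudogene Ighv1-70 (67.4 to 112, mean 96.4 ± 15.6) and at the promoter of Zfp386, a zinc finger gene just outside the locus (86.7 to 139, mean 113 ± 20).
In Igk, apart from the OCR 3′ of Igkc, the highest lay between Igkv3-1 and Igkj1 (chr6:70709163-70710786), with 53.7, 45, 52.5, 57.6, 31.0, 44.8 and 56.9 in the order of the libraries and a mean of 48.8 ± 9.39, and 25.6 kb beyond Igkc, with a mean of 46.8 ± 7.40. The Igk OCRs of this height thus lay at the J and C end, while Igkv3-1 and Igkv3-2, the V segments nearest the J segments, had none. In Trb the highest was over the V pseudogene Trbv10 (58.8 to 113, mean 90.4 ± 19.3), which is not among the 494 segments, and 1 lay 15 kb from Trbd1, the first D segment (12.8 to 35.7, mean 25.7 ± 7.61). The Trb flank also held the promoter of Ephb6 (mean 73.3 ± 15.9).
In the flank of Tra, apart from the OCR between Trac and Dad1, the highest were at the promoters of Dad1 and Abhd4 (121 to 199, mean 159 ± 26.4) and at Abhd4 (mean 61.4 ± 16.2), and in that of Trg at Stard3nl (76.7 to 140, mean 116 ± 23.6, with 9.26 ± 2.16 and 7.01 ± 1.44 for the other 2). The 3 of Igl were present in 4 or 5 libraries, with at most 6.41.

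The support of OCRs at the segments by other libraries was near that of all OCRs, with 72.1% ± 8.69 of them and 68.5% ± 11.7 of all found in every other library. Of the 176 merged OCRs at windows 96 (54.5%) had an OCR in all 7 libraries, against 46.2% of 144931 merged OCRs in the genome and 153 of the 378 (40.5%) outside the windows in the loci and their flanks. Of the segments with an OCR, 94 had one in 7 libraries, 14 in 6, 14 in 5, 6 in 4, 11 in 3, 9 in 2 and 18 in 1. Within a library the OCRs at segments had a median rank of 60% ± 2.13 by fold enrichment, above the middle of the list in 7 of 7 libraries (exact permutation test against 50%, p = 0.0156). These OCRs were taken by overlap with a window, which a wide OCR meets more easily, and no other windows were ranked. The 50% is thus the middle of the list, and need not be the value for other windows of this kind. The excess over 50% was 9.97 points, and 5.47 points with lists cut to equal length. A match to the CTCF core consensus within 100 bp of the summit, for the protein that anchors chromatin loops, was present in 9.11% ± 0.768 of the OCRs in the loci and their flanks, and in 5.49% ± 0.609 of OCRs elsewhere over 3 kb from transcript starts, a difference of 3.62 points ± 0.452 in 7 of 7 libraries (exact permutation test, p = 0.0156). By locus the share was 10.2% ± 0.951 in Igh, 8.88% ± 1.23 in Tra, 6.31% ± 1.20 in Trb and 5.07% ± 1.46 in Igk, where it rested on 1 or 2 OCRs per library. It was 12.2% ± 5.75 in Trg and 4.76% ± 12.6 in Igl, on 0 to 2 and 0 to 1 OCRs with a match per library.

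Among other genes of recombination, an OCR within 1 kb of a transcript start was counted as at the promoter, which 55.9% of 21938 protein-coding genes had in all 7 libraries. Of the 5 recombination genes 4 had one, with low values at Rag1 (4.85 to 7.43, mean 6.26 ± 1.06) and Rag2 (6.73 to 10.9, mean 8.91 ± 1.85), which encode the recombinase, high values at Hmgb1 (mean 201 ± 37.2) and Hmgb2 (mean 289 ± 55.5), which bend DNA, and none at Dntt, the polymerase that adds bases at the joints. All 8 end-joining genes had an OCR in every library, with means from 89.5 at Xrcc5 to 199 at Lig4, as had all 5 genes of locus architecture, from 61.2 at Nipbl to 135 at Ctcf. Of the 7 genes of the surrogate light chain and pre-B receptor, 3 had one, Vpreb1 (84.5 to 164, mean 127 ± 29.2), Igll1 (45.1 to 102, mean 74.2 ± 17.7) and Blnk (8.13 to 15.7, mean 11.5 ± 2.30). Vpreb2, Vpreb3 and Cd79a had none in any library, and Cd79b had 3.06 to 3.93 in 3.
Of the 7 genes of the pre-T receptor and CD3, 4 had an OCR in every library, Cd3d (59.8 to 119, mean 86.4 ± 21.6), Lck (mean 32.3 ± 4.93), Zap70 (mean 25.1 ± 4.72) and Cd247 (mean 11.9 ± 2.64). Cd3e and Cd3g had none, and Ptcra had one in HPC7-1 alone (1.97). Of 9 lymphoid factors 5 had one, among them Il7r (mean 21.4 ± 4.55), Tcf3 (mean 124 ± 27.1), Ikzf1 (mean 59.1 ± 10.3) and Gata3 (mean 114 ± 24.6), while Pax5, Ebf1 and Bcl11b had none and Tcf7 had 2.99 to 3.20 in 3 libraries.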

How the data were processed

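Reads of 7 bulk ATAC-seq libraries of HPC7 were trimmed with Cutadapt, aligned to mm10 with BWA-mem and peaks called in each library with MACS2 by the authors (versions and options not given in the sources used here). The deposited lists give a fold enrichment, the ratio of summit reads over background with 1 read added to each, and a −log10 p-value, a −log10 q-value, an integer score and a summit position for each peak. Within each library 100% of fold enrichments were whole multiples of 1 step (tolerance 0.05 reads), which gave the background in reads. Heights were not scaled between libraries.

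A segment had an OCR when a peak overlapped its window by at least 1 bp. Its fold enrichment was that of the highest such peak, 0 without one. Peaks between segments were counted by summit, with a pseudocount of 0.5. Differences within libraries were tested by the exact sign-flip permutation over 7 libraries (128 patterns, two-sided) with Benjamini-Hochberg adjustment. Named segments were the 10 highest with an OCR in all 7 libraries, 1 per merged OCR, all C segments and the highest of each locus, and the 3 highest OCRs outside the windows in each locus and its 50 kb flanks. Members and lists were chosen with earlier results of these data known, and other named segments after their values were seen. A recombination signal needed at least 5 matches in both heptamer and nonamer. On all 21 chromosomes every peak lay inside the GRCm38 chromosome of that name. Python 3.11.15, numpy 2.4.6, pandas 2.3.3 and scipy 1.17.1 were used, and overlap counts on simulated intervals were compared with those of bedtools 2.31.1. Other window sizes, stricter q-values, equal peak numbers, merged windows and leaving out each library were tried. Some genes of the lists are not reported here by name.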

Additional observations from a re-analysis of the deposited data

Results flagged for a closer look

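Of 45 measures tested for a single library standing apart from the other 6, 3 were above the critical value for 7 samples, where chance alone flags about 1 in 20. The share of D segments with an OCR was 13.0% in HPC7-6, with 4.35% as the next highest, because 1 OCR there covered Ighd5-8, Ighd5-4 and Ighd2-6. The density of OCRs between the Trg segments was 15.7 per Mb in HPC7-8 and 7.86 in each of the other 6, a difference of 1 OCR. Fold enrichment at Trdc was 0.0 in HPC7-6, which had no OCR there, with 3.35 as the next lowest.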

How the results depend on the processing

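Of 287 recomputed values, 191 of the comparisons and counts and 67 of single segments kept their direction and side of the threshold or moved by less than a set limit. The limit was the spread between libraries, except for counts of segments with an OCR in every library. Those were judged by a fold limit, so that 75 without flanks and 103 without HPC7-6 passed as unchanged from 94. The segment shares against other genes, short genes, olfactory receptor genes, V pseudogenes and tiles, and the densities of Igh, Trb, Igk, Igl and Trg, kept direction and side of the threshold under every alternative run, though not their size. With 5 kb flanks the difference from olfactory receptor genes was 30.16 points and that of V segments from V pseudogenes 4.806. The Trb log2 density was 0.8519 over 3 kb from any transcript start, and the excess in rank 5.475 with equal numbers of peaks. With 5 kb flanks the J against V difference was 18.45 points, C against V 2.465 and immunoglobulin against T-cell receptor -10.65, and 149 segments had an OCR in every library. C against V passed the threshold at -13.15 without flanks, -8.325 by summit and -5.749 with equal numbers of peaks. Immunoglobulin against T-cell receptor was 9.082 without flanks and 3.585 with windows merged (exact permutation p = 0.0938), and between 3.642 and 5.656 with 1 library left out, where p missed the threshold without HPC7-2, HPC7-4, HPC7-5, HPC7-6, HPC7-7 or HPC7-8. The Tra log2 density was -0.01905 with a stricter q (−log10 q from 5 up), -0.04747 with equal numbers of peaks, 0.1854 over 3 kb from any transcript start, and between -0.1483 and -0.0981 with 1 library left out, where it missed the threshold when any library but HPC7-2 was dropped. Support by all other libraries fell from 72.1% to 58.5% at 50% reciprocal overlap. Ighm had no OCR without flanks and 0.525 by summit, Igkc none without flanks and 83.4 with 5 kb, and Trac 67.1 with 5 kb. Counts in every library, values of single segments and the comparisons of V segments with pseudogenes within loci were added as alternatives after seeing the data. The causes were not tested. No paired analysis was possible because there is no other group of samples to pair the libraries with. The sets of intervals themselves were compared within each library.

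The shallowest background was 4.44 reads, and a missing peak does not show closed chromatin. Copies of V segments can share reads, and the meaning of the name prefixes is not stated.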
